A study of Mus musculus with 56 samples.

Results

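The blood transcriptome was compared between mice examined 30 days after an injection of strontium-90 (90Sr) and control mice of the same day. The arrays were those titled as day 30 control and day 30 irradiated, which made 12 of the 56 arrays of the series, 6 for each group. All animals were C57BL/6 mice, about 10 to 12 weeks old on arrival. The irradiated mice had received 200 kBq of 90Sr as strontium chloride through the tail vein, with a small share of strontium-85 as a tracer, and per the study's methods the control mice had received the saline vehicle. Whole blood was drawn by cardiac puncture into an RNA stabilizing solution, globin transcripts were reduced before labeling, and the RNA of 1 mouse was hybridized to 1 one-color Agilent mouse array. The exposure continued up to the day of sampling, so that days since injection and cumulative dose cannot be told apart.

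Strontium follows calcium into mineralizing bone, where the beta particles of 90Sr and its daughter nuclide reach the marrow that lies beside it. The marrow supplies all circulating blood lineages, and B lymphocytes are made there and are among the most radiosensitive cells of the blood. Red cells enter the circulation as reticulocytes that still carry transcripts of the erythroid program, while neutrophils, monocytes, T lymphocytes, NK cells and platelets each bring a set of marker transcripts. In whole blood, fewer cells of a type and less RNA per cell cannot be told apart. The questions asked of the day 30 arrays were which genes and functions differed from the controls, and whether the effect of 90Sr at this day differed from that at the earlier days.

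Levels are given as the log2 processed signal of a probe minus the median of the 43020 non-control spots of the array, so that a level compares samples for 1 gene and not genes with each other. The 6 control arrays and 90Sr replicates 1 and 2 were scanned on 1 day, and control replicates 5 and 6 shared a slide with these 2 90Sr arrays. The 90Sr replicates 3 to 6 lay on another slide that was scanned on a day of its own, with no control beside them. Between 19652 and 24698 non-control spots were well above background on the control arrays, and between 14850 and 19590 on the 90Sr arrays. The median signal of an array was 11.2 to 22.7 in the controls and 8.24 to 12.7 in the 90Sr group. The low end of the scale also differed. The 5th percentile of the mean signal less the local background was 3.43 to 9.52 on the control arrays, 6.46 to 8.73 on 90Sr replicates 1 and 2, and 27.8 to 29.8 on 90Sr replicates 3 to 6. Control replicate 4 stood apart from its group: the lowest correlation across probes between 2 control arrays was 0.927, and 0.959 without that array, and its correlation with 90Sr replicate 1 was 0.969. Since slide and scan day were partly shared with the treatment, changes are given below for all 6 90Sr arrays and also for replicates 1 and 2 alone, which were scanned with the controls.

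Of 14581 genes that passed the filters, 5957 were called at day 30, at an unadjusted limma p under 0.001 and a change of at least 2-fold. The number higher in the 90Sr-injected mice was 2862 (19.6% of the genes tested) and the number lower was 3095 (21.2%), and the largest Benjamini-Hochberg adjusted p among them was 0.00228. All 6 90Sr-injected mice lay above all 6 control mice for 1766 of the higher genes, and below them for 2150 of the lower genes. The split between the directions depended on how the arrays were scaled. Of the called genes, 52.0% were lower, against 36% with scaling on the 75th percentile, 72.9% in the authors' log2 table, 76.3% with scaling to 1 reference array, 86.3% after normexp background correction and 31.7% without a detection filter. The median change of all detected genes was 0.11, and it moved to 0.33, -0.71 and -0.20 in the first 3 of these. The called genes kept their direction in 90Sr replicates 1 and 2 against the 6 controls (2862 of 2862 higher and 3095 of 3095 lower), although these replicates also entered the calls. The size differed between the subsets: the median log2 change of the higher genes was 0.99 in replicates 1 and 2 and 1.78 in replicates 3 to 6, and that of the lower genes was -1.18 and -1.60. When scan day was a block in the limma fit, only the arrays of the shared scan day carried the comparison, and 1061 genes were called, with 243 genes called higher at day 30 and 818 genes called lower at day 30. The same 2 replicates both lay above all controls for 2856 genes (19.6% of those tested) and below them for 3090 (21.2%). Among the called genes these numbers were 1808 of the 2862 higher and 2286 of the 3095 lower.

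**Figure D1:**
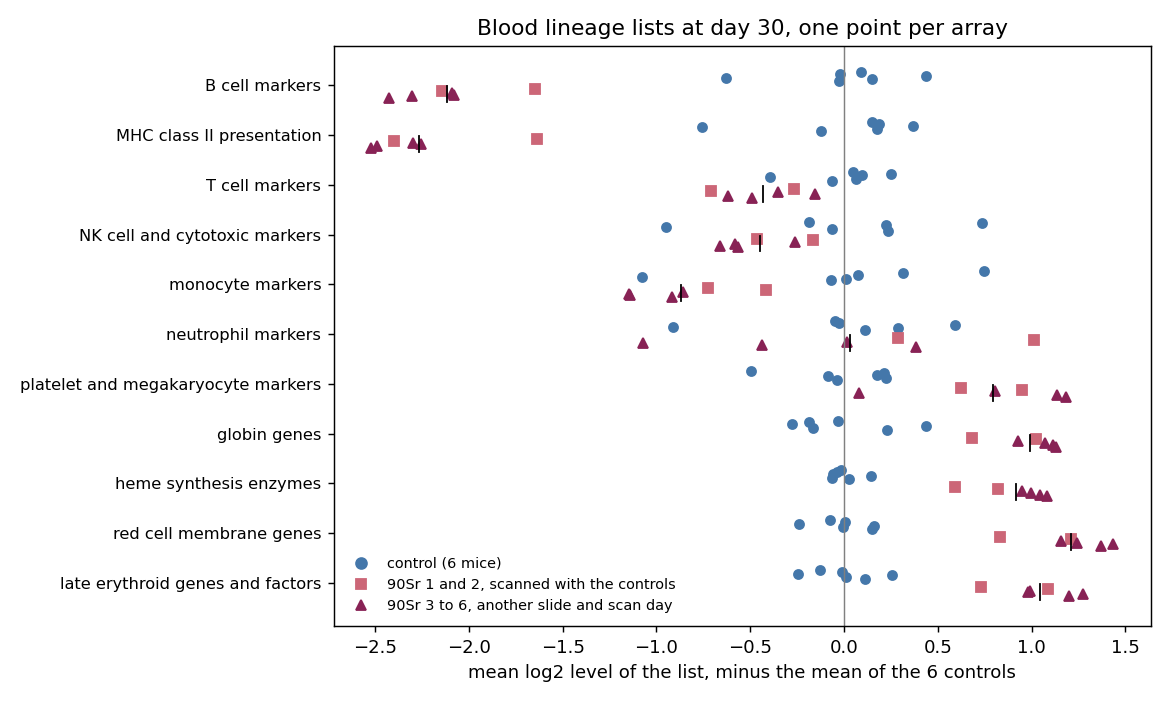
Mean log2 level of the detected members of 11 blood lineage lists on each of the 12 arrays of day 30, on the horizontal axis as the distance from the mean of the 6 control arrays, with circles for the control mice, squares for 90Sr replicates 1 and 2, triangles for 90Sr replicates 3 to 6 and a short black line at the mean of the 6 90Sr arrays. The B cell and MHC class II lists of all 6 90Sr-injected mice lay below all controls, the globin, heme, membrane and late erythroid lists lay above them, and the T cell, NK cell, monocyte, neutrophil and platelet lists overlapped. The median change of the neutrophil list changed sign with the scaling.

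The B lymphocyte genes were lower in the 90Sr-injected mice almost without exception. Of 23 B cell markers tested, 21 fell and 0 rose, and the 24 detected markers had a median of -2.4 on the log2 scale, against 0.11 for all detected genes. The mean level of the list ranged from 4.84 to 5.9 in the control mice and 3.04 to 3.81 in the 90Sr-injected mice, with no overlap, and its median was -2.16 in 90Sr replicates 1 and 2 and -2.55 in replicates 3 to 6. In the fit with scan day as a block, 19 markers were still called. Cd79b, the beta chain of the B cell receptor's signaling pair, had levels between 8.67 and 9.83 (median 9.38) in the 6 control mice and between 5.66 and 7.4 (median 6.25) in the 6 90Sr-injected mice at its probe on chr11:106172780-106172839 (mm9). No 90Sr-injected mouse reached the lowest control, an 8.16-fold difference (log2 change -3.03, SE 0.28, limma adjusted p = 1.35e-05), and within the shared scan day the change was -2.44, limma adjusted p = 0.00201. Ebf1, a transcription factor that commits progenitors to the B lineage, had levels between 2.43 and 3.83 (median 3.37) in the 6 control mice and between -0.86 and 1.0 (median 0.43) in the 6 90Sr-injected mice. It fell (log2 change -3.11, SE 0.34, limma adjusted p = 2.12e-05), but no fold is given, since its probe on chr11:44818438-44818497 was well above background on 6 control arrays and on 1 90Sr array. Cxcr5, the chemokine receptor that guides B cells to follicles, and Tnfrsf13c, the receptor for the B cell survival factor BAFF, fell as well (7.45-fold and 7.68-fold, limma adjusted p = 1.41e-05 and 1.35e-05). Ly6d, a surface marker of early B cells, fell 5.55-fold. The markers tested and not called were Siglecg, a B cell inhibitory lectin, with a log2 change of -0.76, and Pax5, which maintains B cell identity, with 1.13. Pax5 was at 0.03 in 90Sr replicates 1 and 2 and 1.69 in replicates 3 to 6, so its direction rested on the other scan day. Cd22, a lectin of B cells, did not pass the variation filter. These 3 were named after their values were seen.

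Genes of the immunoglobulin and plasma cell list were mostly lower, with a negative change for 8 of 9 tested and a positive one for 1. Of the 9, 4 were called lower (44.4%, against 21.2% of all tested genes) and 0 higher, with a median of -0.77. The strongest was Irf4, a factor needed for activated B cells and plasma cells, with levels between 2.23 and 3.24 (median 3.05) in the 6 control mice and between -1.31 and 0.55 (median -0.47) in the 6 90Sr-injected mice. The groups did not overlap (log2 change -3.32, SE 0.32, limma adjusted p = 1.35e-05), its probe was well above background on 1 90Sr array, and the change was -2.44 in 90Sr replicates 1 and 2 and -3.76 in replicates 3 to 6. Iglv1, an immunoglobulin lambda variable segment, fell by 2.39 on the log2 scale (limma adjusted p = 7.19e-05), while Xbp1, which drives the secretory program of plasma cells, had -0.77 and was not called. Of the 31 B cell receptor signaling genes tested, 16 fell and 1 rose. Ptpn6, a phosphatase that restrains receptor signals, fell by 2.02 on the log2 scale (limma adjusted p = 0.000101). The single riser was Akt2, a kinase of growth factor signaling, with 1.29, and -0.90 with scaling to the reference array.

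The genes of MHC class II presentation fell throughout (13 of 13 tested, median -2.28), with medians of -2.16 in 90Sr replicates 1 and 2 and -2.44 in replicates 3 to 6. Class II molecules present peptides to helper T cells and are carried mainly by B cells, dendritic cells and monocytes. Cd74, the invariant chain that escorts class II molecules, had levels between 8.08 and 9.22 (median 8.81) in the 6 control mice and between 5.06 and 6.82 (median 5.38) in the 6 90Sr-injected mice. It fell 8.79-fold (log2 change -3.14, SE 0.30, limma adjusted p = 1.35e-05), and by 2.38 on the log2 scale within the shared scan day. The bright class II chains H2-Ab1 and H2-Eb1 fell 6.25-fold and 6.16-fold (limma adjusted p = 1.61e-05 and 1.35e-05). The levels of H2-Ab1 lay between 9.3 and 10.44 (median 10.33) in the 6 control mice and between 6.86 and 8.33 (median 7.46) in the 6 90Sr-injected mice, again without overlap. H2-Eb2 was not well above background on any 90Sr array and was at least 2.86-fold lower (limma adjusted p = 4.57e-05). Of the 13 genes, 11 stayed called with scan day as a block. H2-Ob was counted both in this list and among the B cell markers. The mean level of the list on 90Sr replicate 1 was 4.56, above the other 5 90Sr-injected mice and below all controls.

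The promoters of class II genes carry a conserved block that ends in a CCAAT box. The letters were searched here on either strand, and a match was not shown to be the box of that block. The sequence of 250 bases before the annotated start is shown for 2 class II genes that fell, H2-Eb1 (chr17:34305617-34305866, plus strand) and H2-Aa (chr17:34287824-34288073, minus strand), from RefSeq on GRCm38.p6, read 5′ to 3′ on the gene's strand, with capitals on each CCAAT or its reverse complement ATTGG. H2-Aa (log2 change -2.21) was picked after its values were seen.
H2-Eb1: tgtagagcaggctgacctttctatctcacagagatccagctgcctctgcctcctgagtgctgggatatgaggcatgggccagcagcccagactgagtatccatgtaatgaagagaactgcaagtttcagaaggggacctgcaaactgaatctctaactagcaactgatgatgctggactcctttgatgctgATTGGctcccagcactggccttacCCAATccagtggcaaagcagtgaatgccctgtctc
H2-Aa: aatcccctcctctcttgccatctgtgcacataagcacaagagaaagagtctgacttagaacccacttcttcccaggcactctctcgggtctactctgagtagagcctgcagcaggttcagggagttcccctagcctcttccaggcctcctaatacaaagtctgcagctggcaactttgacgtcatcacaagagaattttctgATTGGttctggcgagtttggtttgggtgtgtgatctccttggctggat
The letters CCAAT, on either strand, were found in 7 of the 10 class II promoters in the table (70.0%) and in 34.5% of all 27025 promoters of the same length. Among called genes of all kinds the share was 36.7% for the higher and 37.1% for the lower. The octamer ATGCAAAT, also searched on both strands, was in 2 of 17 B cell marker promoters (11.8%) and in 1.61% of all promoters. The pair CCCNNGGG that EBF proteins prefer was in 3 of 17 B cell marker promoters (17.6%). Its share was 14.3% for the detected genes' promoters and 11.7% for all. It was not particular to the B cell list, with 5 of 20 late erythroid, 2 of 10 heme and 2 of 12 red cell membrane promoters. The T cell marker list had it in 2 of 18 promoters and the class II list in 1 of 10.

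The T cell marker calls depended on the scaling. Of 20 tested, 4 fell (20%) and 2 rose (10%), not more than the 21.2% and 19.6% of all tested genes. The changes leaned downward, however, with 22 of the 27 detected markers negative and 5 positive. Both of 90Sr replicates 1 and 2 lay below all 6 controls for 10 of the 20 tested markers and above them for 1. Of all tested genes, 21.2% lay below and 19.6% above. The calls were 12 lower and 1 higher both in the authors' table and with scaling to the reference array. After normexp correction they were 10 lower and 0 higher. The median was -0.72, and the mean level of the list, 4.21 to 4.86 in the control mice and 3.9 to 4.45 in the 90Sr-injected mice, overlapped between the groups. Cd2, an adhesion receptor of T and NK cells, had levels between 7.11 and 8.13 (median 7.92) in the 6 control mice and between 5.19 and 6.58 (median 5.75) in the 6 90Sr-injected mice, without overlap (log2 change -2.02, SE 0.25, limma adjusted p = 4.76e-05). Ccr7, which directs naive T cells to lymph nodes, fell 2.37-fold (log2 change -1.25, SE 0.24, limma adjusted p = 0.000388), and both were still called with scan day as a block. The other called members, Cd3d and Cd6, fell by 1.07 and 1.12 on the log2 scale, and they were named after their values were seen. The bright co-receptor Cd4 showed the opposite, with 1.95, but it was not called (SE 0.52, limma adjusted p = 0.00343) and the change was 0.73 in 90Sr replicates 1 and 2 and 2.55 in replicates 3 to 6. Cd27 and Cd8b1 rose by 1.51 and 1.53 with a like gap between the scan days: 0.67 and 0.70 in replicates 1 and 2. Cd3e, a signaling chain of the T cell receptor, had -0.82 (limma adjusted p = 0.0276) and was not called. Of 13 T cell receptor signaling genes tested, 5 fell and 2 rose. Of 23 NK cell and cytotoxic markers tested, 0 fell and 1, the receptor Cd244, rose, with a median of -0.64. The NK markers called lower were 7 in the authors' table, 6 with the reference array, 4 after normexp correction and 3 without control replicate 4. Levels of granzyme A (Gzma) lay between 6.57 and 8.68 (median 7.98) in the 6 control mice and between 6.96 and 7.65 (median 7.36) in the 6 90Sr-injected mice, with overlap, and the change was -0.59 (limma adjusted p = 0.0909).

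**Figure D2:**
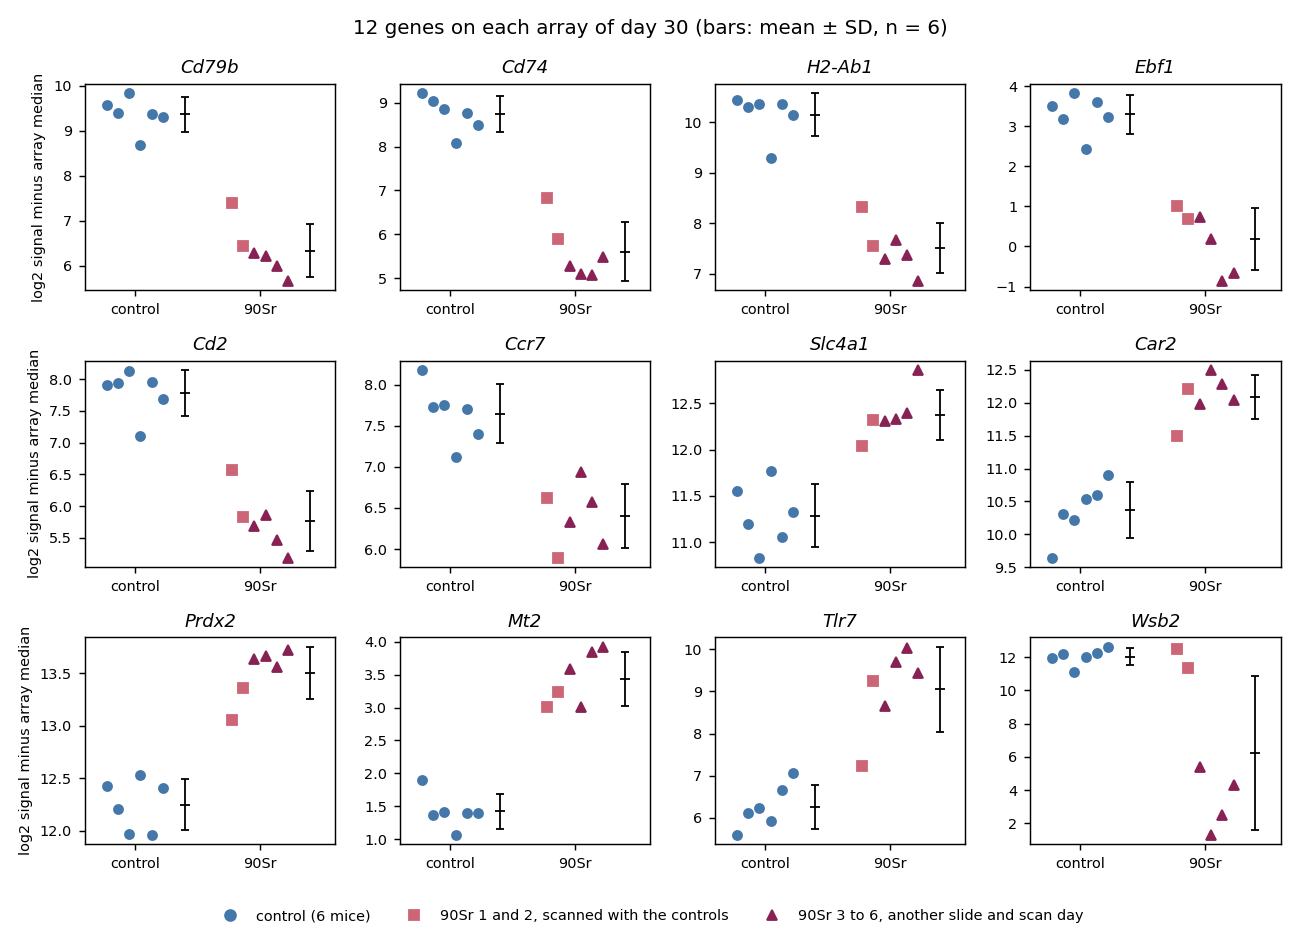
Log2 signal minus the array median on the vertical axis for 12 genes on each of the 12 arrays of day 30, with circles for control mice, squares for 90Sr replicates 1 and 2, triangles for 90Sr replicates 3 to 6, and bars for the mean ± SD of 6 mice. Cd79b, Cd74, H2-Ab1 and Ebf1 separate the groups downward and Car2, Prdx2 and Mt2 upward in all mice, whereas Wsb2 is low on the arrays of the other scan day alone.

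Among the dendritic cell and myeloid lists, 6 of 12 dendritic cell markers fell. The share of monocyte markers that fell was near that of all genes, and neutrophil genes had no common direction over the 6 90Sr arrays together. Of 25 monocyte markers tested, 7 fell (28.0%, against 21.2% of all tested genes) and 1 rose, with a median of -0.91. Ccr2, the receptor by which monocytes leave the marrow, had levels between 2.33 and 5.69 (median 4.14) in the 6 control mice and between 0.69 and 2.41 (median 1.13) in the 6 90Sr-injected mice. These ranges overlapped slightly (log2 change -2.84, SE 0.46, limma adjusted p = 0.000148), and the change of -2.09 within the shared scan day did not pass the call there. The riser, Ms4a4c (1.26), was at -0.69 when its probes were averaged and at -2.85 in the authors' table. None of the monocyte markers (0 of 25) was called with scan day as a block. Of 12 dendritic cell markers tested, 6 fell and 2 rose. Among the 6 was Ly6d, which was also counted as a B cell marker. With scan day as a block, 3 of the list were called lower and 0 higher. Cd209a, a lectin of monocyte-derived dendritic cells, fell (log2 change -3.44, SE 0.51, limma adjusted p = 0.000101, well above background on 2 90Sr arrays), with levels between 0.98 and 4.05 (median 3.05) in the 6 control mice and between -1.51 and 0.93 (median -0.76) in the 6 90Sr-injected mice, with no overlap. Siglech, a marker of plasmacytoid dendritic cells, and Zbtb46, a factor of conventional ones, rose (1.39 and 1.4), although Siglech lost the call when single arrays were left out.

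Of 25 neutrophil markers tested, 2 rose and 1 fell, and the median was 0.06, which was negative in the authors' table (-0.22), with scaling to the reference array (-0.24) and after normexp correction (-0.29). That median was 0.76 in 90Sr replicates 1 and 2 and -0.38 in replicates 3 to 6. Both of replicates 1 and 2 lay above all 6 controls for 10 of the 25 tested markers and below them for 0. Of all tested genes, 19.6% lay above and 21.2% below. Il1r2, the decoy receptor for interleukin 1, rose 3.49-fold, with levels between 1.35 and 2.83 (median 2.46) in the 6 control mice and between 2.51 and 4.8 (median 4.41) in the 6 90Sr-injected mice. Its ranges overlapped (log2 change 1.8, SE 0.36, limma adjusted p = 0.000503), and it was called with scan day as a block as well. Cebpe, a factor of late granulocyte maturation, fell by 2.06 on the log2 scale, with -1.03 in 90Sr replicates 1 and 2 and -2.58 in replicates 3 to 6. The calprotectin subunit S100a9 was at -0.09 (SE 0.38). Of the 8 primary granule and progenitor genes tested, Prtn3, a serine protease of neutrophil granules, rose (1.06, a call that some single arrays decided) and Myb, a progenitor factor, fell (-1.15). Of 10 mast cell, basophil and eosinophil markers tested, 2 fell. One of them was Il5ra, the eosinophil growth factor receptor, with -1.7 (limma adjusted p = 3.98e-05). The median of that list was -0.18 in 90Sr replicates 1 and 2 and -1.08 in replicates 3 to 6.

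Genes of late red cell development rose together. Of 17 red cell membrane and cytoskeleton genes tested, 15 rose and 0 fell, and of 18 erythroid factors and late erythroid genes, 16 rose and 0 fell. Both medians were 1.15, and they were 0.58 and 0.51 after normexp correction. The numbers of calls were smaller under other scalings, with 0 lower in each of these. Membrane genes rose in 10 of 16 tested both in the authors' table and with the reference array, and in 3 of 4 after normexp correction. Late erythroid genes rose in 6 of 12, 8 of 14 and 2 of 3. Of 8 heme synthesis enzymes tested, 6 rose, and of 6 globin genes 3 rose. Heme enzymes numbered 2 higher and 1 lower of 4 tested in the authors' table, 2 and 0 of 4 with the reference array, and 0 and 0 of 2 after normexp correction. The mean level of the membrane list ranged from 5.44 to 5.84 in the control mice and 6.51 to 7.12 in the 90Sr-injected mice, with no overlap. The fit with scan day as a block still called 8 membrane genes, 6 late erythroid genes, 1 heme enzyme and 1 globin gene. Tmod1, which caps the actin filaments of the red cell skeleton, had levels between 3.73 and 4.66 (median 3.98) in the 6 control mice and between 5.09 and 6.2 (median 5.91) in the 6 90Sr-injected mice. It rose 3.41-fold (log2 change 1.77, SE 0.24, limma adjusted p = 7.19e-05), and the change within the shared scan day was 1.54, limma adjusted p = 0.00934. Epb4.2, the band 4.2 protein that anchors the skeleton to the membrane, rose 3.24-fold, with levels between 4.1 and 4.94 (median 4.84) in the 6 control mice and between 5.81 and 6.79 (median 6.43) in the 6 90Sr-injected mice. Neither gene's groups overlapped. The anion exchanger Slc4a1 rose by 1.09 on the log2 scale (limma adjusted p = 0.000532), and it lost the call when control replicate 3 or 90Sr replicate 6 was left out.

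Trim10, which is expressed in maturing erythroblasts, had levels between 5.96 and 7.55 (median 7.32) in the 6 control mice and between 8.31 and 9.2 (median 8.91) in the 6 90Sr-injected mice, again without overlap, and rose 3.32-fold (log2 change 1.73, SE 0.27, limma adjusted p = 0.000132). The carbonic anhydrase Car2 rose 3.3-fold (limma adjusted p = 8.40e-05). In the heme pathway, Uros had levels between 0.89 and 1.19 (median 0.96) in the 6 control mice and between 2.13 and 2.87 (median 2.69) in the 6 90Sr-injected mice, well apart (log2 change 1.62, SE 0.19, limma adjusted p = 3.28e-05), and the change was 1.65 in 90Sr replicates 1 and 2 and 1.61 in replicates 3 to 6. Alas2, the first enzyme of erythroid heme synthesis, was among the brightest probes, with 0.86 (SE 0.21, limma adjusted p = 0.00233), below the 2-fold threshold, and it was saturated on 3 of the 12 arrays. The embryonic globin Hbb-y rose 2.53-fold (limma adjusted p = 0.000116). The probe of the adult alpha globin Hba-a1 was saturated on 12 of 12 arrays, so no fold is given for it, and globin levels also depend on the reduction step. Transcripts of near-identical globin genes may share a probe.

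The same stretch before the start is shown for the erythroid genes Alas2 (chrX:150547167-150547416, plus strand) and Epb42, the current name of Epb4.2 (chr2:121036878-121037127, minus strand, not among the promoters counted here, which were matched by array symbol), again from RefSeq on GRCm38.p6, with capitals on AGATAA (or TTATCT) and, in Alas2, on CACCC (or GGGTG), the letters that GATA and KLF factors read.
Alas2: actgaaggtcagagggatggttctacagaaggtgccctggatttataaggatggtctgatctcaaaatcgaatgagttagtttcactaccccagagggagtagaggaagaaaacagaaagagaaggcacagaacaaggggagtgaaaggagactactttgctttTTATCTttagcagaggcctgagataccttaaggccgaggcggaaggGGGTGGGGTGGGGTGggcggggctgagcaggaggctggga
Epb42: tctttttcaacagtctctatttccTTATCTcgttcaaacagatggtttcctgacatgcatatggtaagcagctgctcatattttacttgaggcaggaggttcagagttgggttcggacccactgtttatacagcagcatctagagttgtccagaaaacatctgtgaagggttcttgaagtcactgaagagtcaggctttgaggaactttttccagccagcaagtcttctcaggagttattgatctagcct
AGATAA on either strand was found in 4 of the 12 red cell membrane promoters (33.3%), in 15% of the late erythroid promoters and in 10.3% of all 27025. CACCC was in 12 of the 12 red cell membrane promoters counted and in 51.3% of all. The stretch of Epb42, a red cell membrane gene left out of this count, held no CACCC on either strand. CACCC was also frequent elsewhere, in 70.6% of the B cell marker, 70.0% of the late erythroid and 60.0% of the heme promoters. The share was 56% for the detected genes' promoters, and AGATAA was in 10.0% of the heme promoters.

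Of 30 platelet genes detected, 29 were higher in level, but most did not pass the variation filter. Of 11 tested, 3 rose (27.3%, against 19.6% of all tested genes) and 0 fell. The median over 30 detected genes was 0.83, or 0.23 after normexp correction. With scan day as a block, and after normexp correction, 0 were called. The numbers higher and lower were 0 and 1 in the authors' table, 1 and 1 with the reference array, and 10 and 0 with scaling on the 75th percentile. The mean level of the list overlapped between the groups, reaching 6.79 in the control mice and starting at 6.64 in the 90Sr-injected mice. Sparc, a matrix protein stored in platelet granules, had levels between 2.27 and 3.57 (median 3.32) in the 6 control mice and between 3.93 and 5.39 (median 5.08) in the 6 90Sr-injected mice and rose 3.48-fold (log2 change 1.8, SE 0.28, limma adjusted p = 0.000127). The bright platelet chemokine Pf4 had levels between 12.41 and 12.66 (median 12.52) in the 6 control mice and between 12.87 and 13.81 (median 13.37) in the 6 90Sr-injected mice. Its groups did not overlap, but the difference of 0.83 was not tested, since the probe varied too little over the 56 arrays.

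Metal-binding and antioxidant genes were more often higher than lower with the median scaling, and this balance did not hold under other scalings. Of 12 antioxidant enzymes tested, 8 rose and 1 fell, with a median of 0.62 (0.11 after normexp correction), and of 17 iron and metal handling genes, 8 rose and 4 fell, with a median of 0.91, which was 0.29 after normexp correction and -0.68 in the authors' table. Antioxidant calls numbered 0 higher and 2 lower after normexp correction and 1 higher and 1 lower both in the authors' table and with the reference array. Metal gene calls numbered 0 and 3 after normexp correction, 3 and 3 in the authors' table and 5 and 4 with the reference array. The metallothionein Mt2, which binds zinc and copper, had levels between 1.07 and 1.9 (median 1.4) in the 6 control mice and between 3.0 and 3.93 (median 3.41) in the 6 90Sr-injected mice at its probe on chr8:96697371-96697430. All 90Sr-injected mice were above all control mice, 4.03-fold (log2 change 2.01, SE 0.23, limma adjusted p = 2.82e-05), and within the shared scan day the change was 1.69, limma adjusted p = 0.00485. Mt1 rose 3.2-fold. Catalase (Cat), which breaks down hydrogen peroxide, and the abundant red cell peroxiredoxin Prdx2 rose by 1.53 and 1.26 on the log2 scale. Ferritin light chain (Ftl1), the iron store, rose by 1.18. Keap1, the sensor that holds the antioxidant factor NRF2 in check, fell by 1.93 (well above background on 2 90Sr arrays), and the heme oxygenase Hmox2 fell by 1.6. None of the 8 antioxidant risers stayed called with scan day as a block, against 4 of the 8 metal genes.

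**Figure D3:**
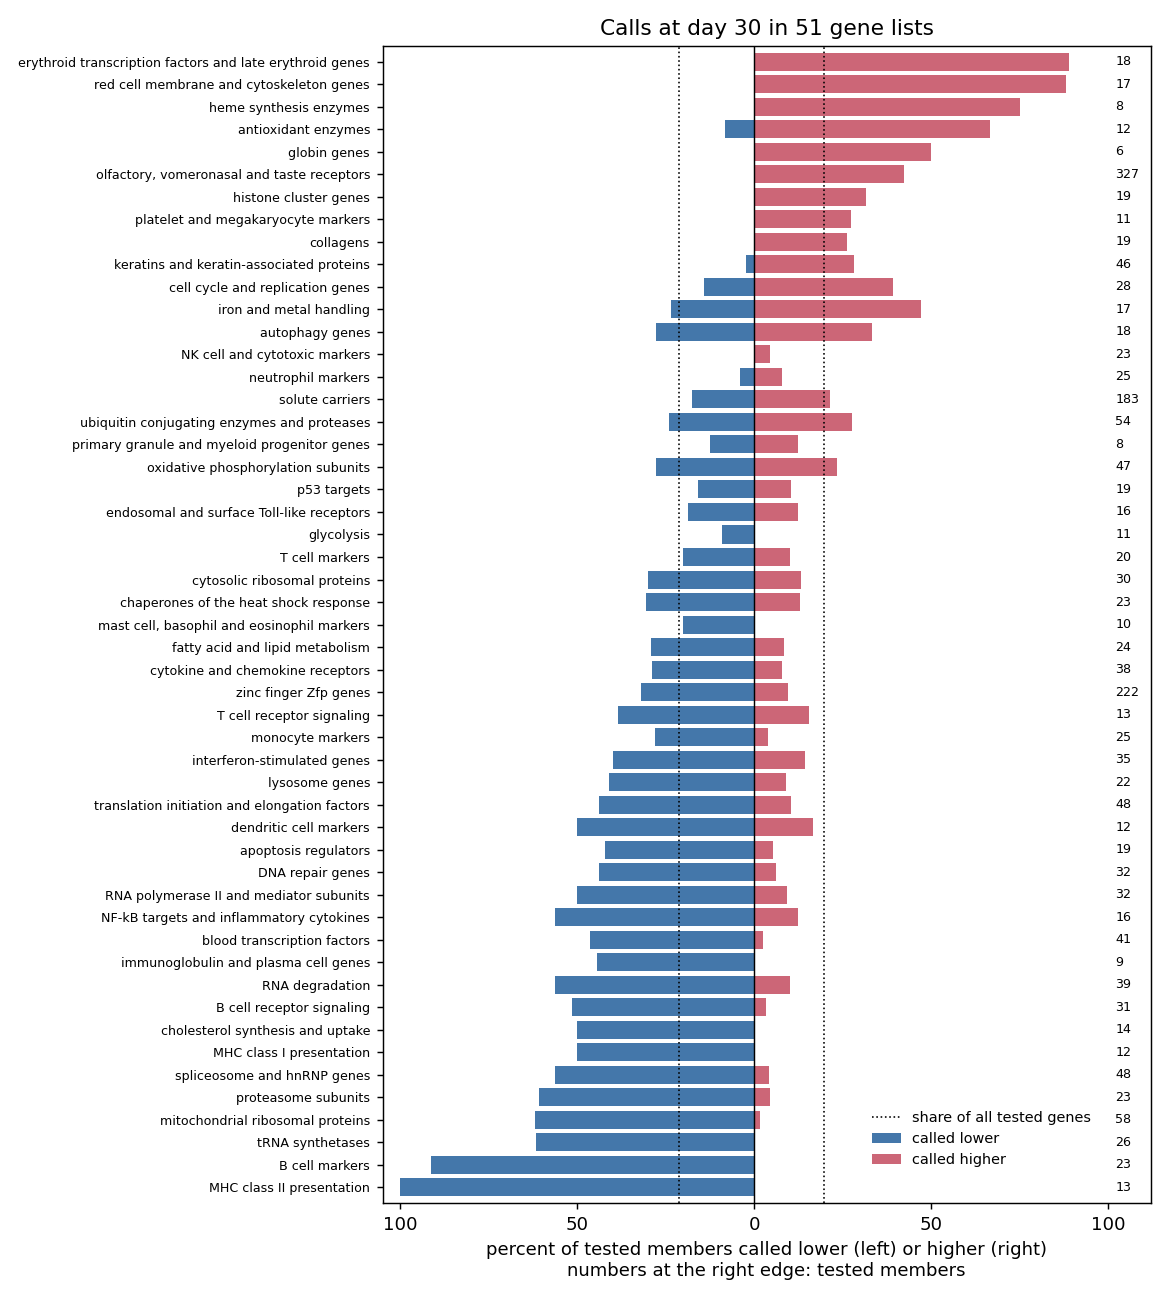
Percent of the tested members of 51 gene lists that were called lower (bars to the left) or higher (bars to the right) at day 30, with the number tested at the right edge and dotted lines at the 21.2% and 19.6% of all tested genes. MHC class II, B cell, mitochondrial ribosomal and tRNA synthetase lists stand at the lower end, and late erythroid, red cell membrane and heme lists at the upper end.

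Cell division genes were called in both directions, in proportions that changed with the scaling. Of 28 cell cycle and replication genes tested, 11 rose (39.3%) and 4 fell (14.3%), against 19.6% and 21.2% of all tested genes. The median was 0.52 (0.06 after normexp correction). The numbers higher and lower were 5 and 5 in the authors' table, 4 and 6 with the reference array, and 0 and 3 after normexp correction, where 9 were tested. Ube2c, which marks mitotic cyclins for destruction, had levels between 9.8 and 10.19 (median 9.99) in the 6 control mice and between 11.14 and 11.69 (median 11.31) in the 6 90Sr-injected mice, without overlap (log2 change 1.36, SE 0.19, limma adjusted p = 7.71e-05), and the change was 1.42 in 90Sr replicates 1 and 2 and 1.33 in replicates 3 to 6. Ccna2, the cyclin of S and G2 phase, rose by 1.43 on the log2 scale. The replication licensing genes Mcm5 and Cdt1 fell (-1.46 and -1.44, limma adjusted p = 0.000241 and 0.000147). Among 19 histone cluster genes tested, 6 rose (31.6%) and 0 fell. The median of that list was 0.56, and 0.02 after normexp correction, where 3 were tested and 0 called. Hist1h2bp, an H2B gene whose near-identical copies may share the probe, rose 2.84-fold, with levels between 3.57 and 4.16 (median 3.83) in the 6 control mice and between 4.77 and 5.59 (median 5.5) in the 6 90Sr-injected mice.

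Genes of the DNA damage response did not rise as a group. Of 19 p53 targets tested, 2 rose (10.5%) and 3 fell (15.8%), with a median of -0.45. Both shares were below the 19.6% higher and 21.2% lower of all tested genes. Gadd45a, a stress sensor that slows the cell cycle, had levels between 7.72 and 7.94 (median 7.81) in the 6 control mice and between 8.79 and 9.32 (median 9.11) in the 6 90Sr-injected mice. Its groups were far apart relative to their spread, 2.38-fold (log2 change 1.25, SE 0.18, limma adjusted p = 9.19e-05), and it stayed called with scan day as a block. Phlda3, a p53 target that restrains AKT, rose by 1.07, a call lost without 90Sr replicate 5. Cdkn1a, the p21 inhibitor that p53 induces, was well above background on 2 control and 1 90Sr arrays, with levels between -1.5 and 0.45 (median -0.67) in the 6 control mice and between -1.13 and 0.45 (median -0.61) in the 6 90Sr-injected mice. It was not called at day 30 (log2 change 0.15, SE 0.35, limma adjusted p = 0.714), and was at 0.95 in 90Sr replicates 1 and 2 and -0.25 in replicates 3 to 6. The damage recognition gene Ddb2 was at -0.14 (SE 0.43, limma adjusted p = 0.773). Of 32 DNA repair genes tested, 14 fell (43.8%) and 2 rose (6.25%). Pold1, the catalytic subunit of polymerase delta, had levels between 3.93 and 4.72 (median 4.49) in the 6 control mice and between 2.37 and 3.0 (median 2.4) in the 6 90Sr-injected mice, without overlap (log2 change -1.93, SE 0.21, limma adjusted p = 2.12e-05). The checkpoint kinase Atr was a riser (1.81), but it was at -0.85 after normexp correction and -1.86 in the authors' table. Among 19 apoptosis regulators tested, 8 fell (42.1%) and 1 rose (5.26%). Bmf, a proapoptotic BH3 protein, fell 4.89-fold (log2 change -2.29, SE 0.28, limma adjusted p = 3.64e-05), and Bcl2l1, the survival protein BCL-XL that erythroblasts express, rose by 1.17 on the log2 scale.

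Innate sensors and signaling genes had calls in both directions, beside 21.2% lower and 19.6% higher of all tested genes. Of 35 interferon-stimulated genes tested, 14 fell (40%) and 5 rose (14.3%), with a median of -0.51. Stat2, a subunit of the interferon-activated factor ISGF3, had levels between 3.31 and 4.33 (median 4.05) in the 6 control mice and between 1.38 and 2.62 (median 1.86) in the 6 90Sr-injected mice, without overlap (log2 change -2.02, SE 0.25, limma adjusted p = 4.57e-05). Oas3 and Rsad2, antiviral effectors, rose by 1.51 and 1.17. Of the interferon-stimulated calls, 1 of the 14 lower and 0 of the 5 higher genes stayed called with scan day as a block. Of 16 Toll-like receptor genes tested, 3 fell (18.8%) and 2 rose (12.5%), shares below those of all tested genes. Tlr1, a sensor of bacterial lipopeptides, had levels between 2.78 and 3.63 (median 3.34) in the 6 control mice, and of at most 1.76 (median 0.20) in the 6 90Sr-injected mice. It fell (log2 change -2.72, SE 0.31, limma adjusted p = 2.61e-05, well above background on 2 90Sr arrays), and the trafficking protein of the endosomal receptors, Unc93b1, fell 3.47-fold (limma adjusted p = 0.000138). The single-stranded RNA sensors Tlr7 and Tlr8 rose (2.78 and 2.15), with Tlr7 at 1.96 in 90Sr replicates 1 and 2 and 3.19 in replicates 3 to 6.

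Of 16 NF-kB targets tested, 9 fell and 2 rose, with a median of -1.22. The B cell and dendritic cell activation markers Cd83 and Cd40 fell 5.16-fold and 4.94-fold, and both stayed called with scan day as a block. Among 41 blood transcription factors tested, 19 fell and 1 rose. Bach2, which keeps B and T cells from terminal differentiation, had levels between 3.08 and 3.83 (median 3.54) in the 6 control mice and between 0.60 and 2.03 (median 1.26) in the 6 90Sr-injected mice, without overlap (log2 change -2.25, SE 0.27, limma adjusted p = 3.27e-05). Klf2, a regulator of lymphocyte trafficking, fell by 1.40 on the log2 scale. The riser was Runx3, a factor of cytotoxic T cells, with 2.24, and -1.55 in the authors' table. Of 12 MHC class I genes tested, 6 fell, among them the immunoproteasome subunit Psmb10 (-2.01), and 0 of these stayed called with scan day as a block.

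The machinery of gene expression was lower across several complexes. Of 58 mitochondrial ribosomal proteins tested, 36 fell and 1 rose (median -1.12); of 48 spliceosome and hnRNP genes, 27 fell and 2 rose (median -1.11); of 26 tRNA synthetases, 16 fell and 0 rose (median -1.07). For RNA degradation 22 of 39 fell and 4 rose, for translation factors 21 of 48 fell and 5 rose, for proteasome subunits 14 of 23 fell and 1 rose, and for RNA polymerase II and mediator subunits 16 of 32 fell and 3 rose. Each of these medians stayed below zero under every scaling tried. Both of 90Sr replicates 1 and 2 lay below all 6 controls for 26 mitochondrial ribosomal, 27 spliceosome and 16 tRNA synthetase genes. For RNA degradation, translation factors, proteasome and RNA polymerase II the numbers were 19, 23, 8 and 11. Of all tested genes, 21.2% lay below all controls and 19.6% above. In the same order of lists, 1, 0, 0, 3, 6, 2 and 3 genes lay above. Fewer calls were made with scan day as a block, where only the 2 90Sr arrays of the shared scan day carried the comparison. With scan day as a block, 6 of the mitochondrial ribosomal, 6 of the spliceosome, 2 of the tRNA synthetase, 5 of the RNA degradation, 7 of the translation factor, 1 of the proteasome and 3 of the RNA polymerase II genes were called lower. The mean level of the mitochondrial ribosomal list overlapped between the groups, since control replicate 4 stood at 3.15 and 90Sr replicate 1 at 3.25, and without that control 45 of these genes were called lower. Mrpl12, a mitochondrial ribosomal protein, had levels between 3.07 and 4.43 (median 4.14) in the 6 control mice and between 1.3 and 2.8 (median 1.93) in the 6 90Sr-injected mice, without overlap (log2 change -2.01, SE 0.29, limma adjusted p = 8.93e-05). The exosome subunit Exosc6 fell by 1.91, the splicing factor Hnrnpa1 by 1.65 and the polymerase subunit Polr2h by 2.18 on the log2 scale. Pars2, the mitochondrial prolyl-tRNA synthetase, was not well above background on any 90Sr array and was at least 2.81-fold lower (limma adjusted p = 2.12e-05), and Eif2ak4, the GCN2 kinase that senses uncharged tRNA, was at least 3.04-fold lower (limma adjusted p = 5.54e-05). Of 30 cytosolic ribosomal proteins tested, 9 fell and 4 rose, with a median of -0.22. The numbers lower and higher were 6 and 6 with scaling on the 75th percentile (median 0.08), 17 and 1 with quantile normalization (-0.63), 18 and 1 with the reference array (-0.51), 19 and 1 in the authors' table (-1.29) and 23 and 0 after normexp correction (-0.75). Rpl22 fell by 1.61 and the stalk protein Rplp0 rose by 1.35. Among oxidative phosphorylation subunits, 13 of 47 were lower and 11 higher, against 5 and 20 with scaling on the 75th percentile, 20 and 3 in the authors' table and 23 and 0 after normexp correction, and they had a median of 0.04 that was negative with quantile normalization (-0.18), normexp correction (-0.44), the authors' table (-1.20) and the reference array (-0.22).

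In metabolism, 7 of 14 cholesterol genes tested fell and 0 rose. Sqle, an early committed enzyme of sterol synthesis, fell (log2 change -2.19, SE 0.32, limma adjusted p = 9.25e-05), with its probe well above background on 1 90Sr array. Of 24 fatty acid and lipid genes tested, 7 fell and 2 rose. Cd36, the fatty acid translocase of platelets, monocytes and reticulocytes, had levels between 6.3 and 6.88 (median 6.49) in the 6 control mice and between 7.63 and 8.44 (median 8.16) in the 6 90Sr-injected mice and rose 2.93-fold (log2 change 1.55, SE 0.21, limma adjusted p = 7.19e-05). Abca1, which exports cholesterol, fell (log2 change -2.29), with its probe well above background on 1 90Sr array, and both remained called with scan day as a block. Of 22 lysosome genes tested, 9 fell and 2 rose. Of 18 autophagy genes tested, 6 rose and 5 fell. Their median of 0.23 was -0.81 in the authors' table, -0.09 with the reference array and -0.07 after normexp correction, and the numbers higher and lower were 1 and 3, 1 and 5, and 0 and 1 in these. Sqstm1, an autophagy receptor, rose by 1.6, and Uvrag, a subunit of an autophagy kinase complex, fell by 1.36. Of 11 glycolysis genes tested, 1 fell, the lactate dehydrogenase subunit Ldhb (-1.21). Larger families had calls in both directions, beside 21.2% lower and 19.6% higher of all tested genes. The shares were near these for solute carriers (17.5% lower and 21.3% higher) and for ubiquitin conjugating enzymes and proteases (24.1% and 27.8%). For Zfp genes, chaperones and cytokine and chemokine receptors, the lower share was above that of all tested genes and the higher share below it. Zfp zinc finger genes numbered 71 lower and 21 higher of 222 tested, solute carriers 32 and 39 of 183, ubiquitin conjugating enzymes and proteases 13 and 15 of 54, chaperones 7 and 3 of 23, and cytokine and chemokine receptors 11 and 3 of 38. The solute carriers were 53 lower and 20 higher with the reference array, 36 and 15 in the authors' table and 18 and 4 after normexp correction. The ubiquitin genes were 21 and 8 with the reference array and 17 and 8 in the authors' table, and the chaperones 1 and 5 with scaling on the 75th percentile.

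Genes that blood cells are not known for were also among the risers. Of 327 olfactory, vomeronasal and taste receptors tested, 138 rose (42.2%, against 19.6% of all tested genes) and 0 fell. The median was 1.12, which was 0.65 in 90Sr replicates 1 and 2, 1.38 in replicates 3 to 6 and 0.23 after normexp correction. Of 339 detected receptors, 114 were well above background on all 12 arrays and 82 on no 90Sr array. On no control array were 64 of them so, where a fall could hardly be seen. Of 46 keratin genes tested, 13 rose (28.3%) and 1 fell, and of 19 collagen genes 5 rose (26.3%), shares near the 19.6% of all tested genes. In the fit with scan day as a block, 8 receptors and 1 keratin were called higher. The mean level of the receptor list was 0.17 to 0.90 in the control mice and 0.91 to 1.93 in the 90Sr-injected mice, with 90Sr replicates 3 to 6 above replicates 1 and 2. The net signal of the dimmest spots, given above, was also highest on the arrays of replicates 3 to 6, and its part in the result was not tested. The taste receptor Tas2r109 had levels between 4.62 and 6.03 (median 5.17) in the 6 control mice and between 6.25 and 9.35 (median 8.5) in the 6 90Sr-injected mice, without overlap (log2 change 3.02, SE 0.43, limma adjusted p = 8.40e-05). Among the 15 largest rises that the naming rule kept were Sycp2, a protein of meiotic chromosomes, which was not well above background on any control array and was at least 6.56-fold higher (limma adjusted p = 6.30e-05), and Nos3, the endothelial nitric oxide synthase. Nos3 levels lay between 2.37 and 4.51 (median 3.66) in the 6 control mice and between 4.83 and 7.9 (median 6.91) in the 6 90Sr-injected mice at chr5:23890038-23890097, and the change was 2.23 in 90Sr replicates 1 and 2 and 3.65 in replicates 3 to 6 (limma adjusted p = 8.66e-05). Etv5, an ETS factor, Tagln, an actin-binding protein of smooth muscle, and Kcnma1, a potassium channel, rose by 3.37, 3.18 and 2.93. Cox17, the copper chaperone of cytochrome oxidase, rose by 3.01, and the change within the shared scan day was 2.11, limma adjusted p = 0.00534. A clone or accession symbol in place of a gene name belonged to 1042 of the 2862 higher genes and 518 of the 3095 lower ones.

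Other genes that fell most belonged to no list. B3gnt8, a glycosyltransferase that extends N-glycans, was not well above background on any 90Sr array and was at least 4.95-fold lower (limma adjusted p = 1.35e-05). Pla2g2d, a secreted phospholipase of lymphoid tissue, had levels between 3.81 and 5.1 (median 4.32) in the 6 control mice and between 0.66 and 1.93 (median 1.13) in the 6 90Sr-injected mice, without overlap (log2 change -3.17, SE 0.27, limma adjusted p = 1.35e-05), and the change was -3.1 in 90Sr replicates 1 and 2 and -3.21 in replicates 3 to 6. Rmrp, the RNA of the ribonuclease MRP, fell (log2 change -2.98, limma adjusted p = 5.74e-05), with its probe well above background on 1 90Sr array. The unconventional myosin Myo1e fell by 2.92 on the log2 scale, but control replicate 5 stood at 7.15 against a control median of 2.21, and the call depended on which array was left out. Some genes that were not called overall were low on 1 slide alone. Wsb2, a substrate adaptor of ubiquitin ligases, had levels between 11.09 and 12.62 (median 12.1) in the 6 control mice and between 1.33 and 12.51 (median 4.84) in the 6 90Sr-injected mice, with -0.10 in 90Sr replicates 1 and 2 and -8.64 in replicates 3 to 6. The fibrinogen chain Fga was at -0.23 in 90Sr replicates 1 and 2 and -6.14 in replicates 3 to 6, and granzyme K (Gzmk) at 0.19 in 90Sr replicates 1 and 2 and -5.13 in replicates 3 to 6. In the other direction, the bicarbonate transporter Slc4a7, which was called, was at 1.62 in 90Sr replicates 1 and 2 and 6.04 in replicates 3 to 6. For these 4 genes slide, scan day and the mice hybridized there cannot be told apart.

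**Figure D4:**
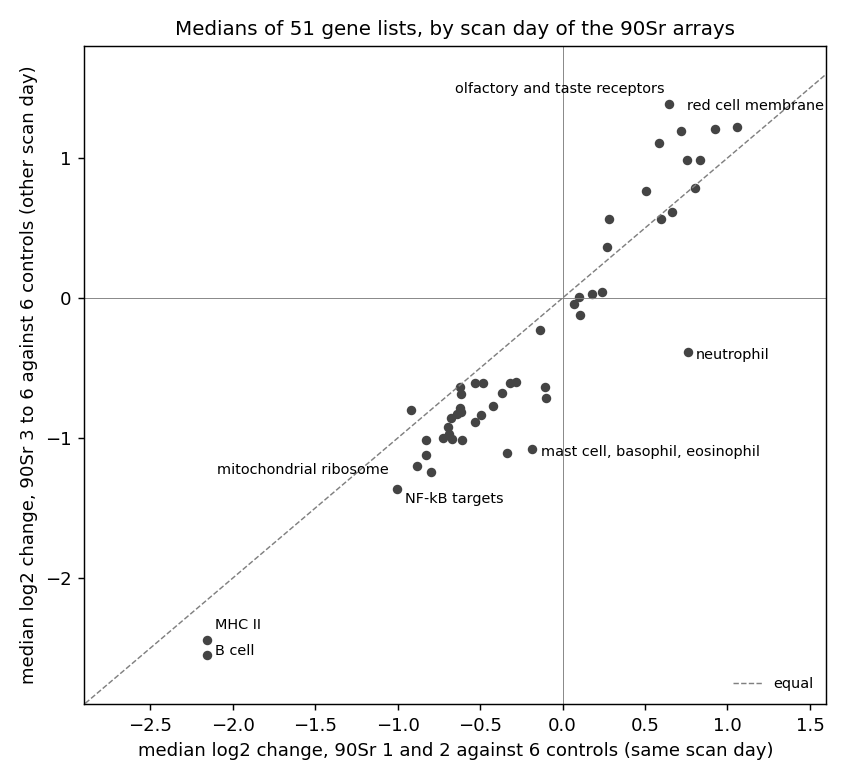
Median log2 change of the detected members of 51 gene lists against the 6 control mice, for 90Sr replicates 1 and 2 on the horizontal axis and 90Sr replicates 3 to 6 on the vertical axis, with a dashed line where both are equal. The B cell (-2.16 and -2.55) and MHC class II (-2.16 and -2.44) lists were low on both scan days, whereas the neutrophil list changed sign (0.76 and -0.38) and the olfactory and taste receptors were higher on the other scan day (0.65 and 1.38).

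Of the 202 called genes that the naming rule selected, 65 remained called with scan day as a block, 20 of the 108 higher and 45 of the 94 lower. Cd79b, Ebf1, Cxcr5, Tnfrsf13c, Ly6d, Irf4, the class II genes Cd74, H2-Ab1, H2-Eb1 and H2-Eb2, the erythroid genes Tmod1, Epb4.2, Uros, Car2, Trim10 and Hbb-y, both metallothioneins, Ube2c, Gadd45a, Bmf, Cd83, Bach2, Tlr1 and Stat2 were among them.

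The effect of 90Sr at day 30 was then set against the mean effect at days 4, 7, 9 and 25, each day with its own controls, in 1 limma fit of all 10 groups. At an adjusted p under 0.05 the effect differed for 3497 genes, upward for 2761 (18.9% of those tested) and downward for 736 (5.05%). These directions depended on the scaling: the numbers were 1339 upward and 2138 downward with scaling on the probes well above background on every array, 1627 and 1678 on the 75th percentile, and 1398 and 1863 on the reference array. The upward genes had a median change of 1.49 at day 30 against 0.34, 0.41, 0.01 and 0.66 at days 4, 7, 9 and 25. Their day 30 controls were lower than the earlier controls by a median of -0.63 and their day 30 90Sr arrays higher than the earlier ones by 0.48. When the 4 90Sr arrays of the other scan day were left out, 2 90Sr arrays remained at day 30 and 7 genes differed. Those with a gene name were G6pd2, Prickle3, Serpinb6d and Zeb2, all upward, and they were named after the test. An unadjusted limma p under 0.05 was reached by 1437 genes in that fit.

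The B cell list had negative medians at every day (-2.19, -1.72, -2.04 and -2.37 at days 4, 7, 9 and 25). Cd79b had log2 changes of -2.32, -1.89, -2.42 and -2.67 at days 4, 7, 9 and 25 and -3.03 at day 30, and the day 30 effect did not differ by the test (difference -0.70, limma adjusted p = 0.123). For Cd74 the difference of -0.99 passed (limma adjusted p = 0.0208), with -2.07, -1.95, -2.18 and -2.37 before. Of the 23 tested B cell markers, 1 differed upward and 0 downward, and of the 13 class II genes 0 and 1. Among the 17 red cell membrane genes 10 differed upward. Epb4.2 had 0.55, 0.64, 1.21 and 0.44 before and 1.69 at day 30 (difference 0.99, limma adjusted p = 0.0016). Mt2 had 1.97, 2.24, 2.76 and 2.1 before 2.01 at day 30, with a difference of -0.26 (limma adjusted p = 0.447). Cdkn1a, whose probe was mostly not well above background at day 30, had 1.87, 1.65, 1.99 and 1.23 before and 0.15 at day 30 (difference -1.54, limma adjusted p = 8.12e-05). For Gadd45a the changes were 0.24, 0.19, 0.80 and 0.15 before and 1.25 at day 30 (difference 0.91, limma adjusted p = 0.00103). Cd74, Epb4.2, Cdkn1a and Gadd45a were not among the 7 genes that differed without the 90Sr arrays of the other scan day. Of the 327 sensory receptor genes tested, 103 differed upward and 21 downward.

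**Figure D5:**
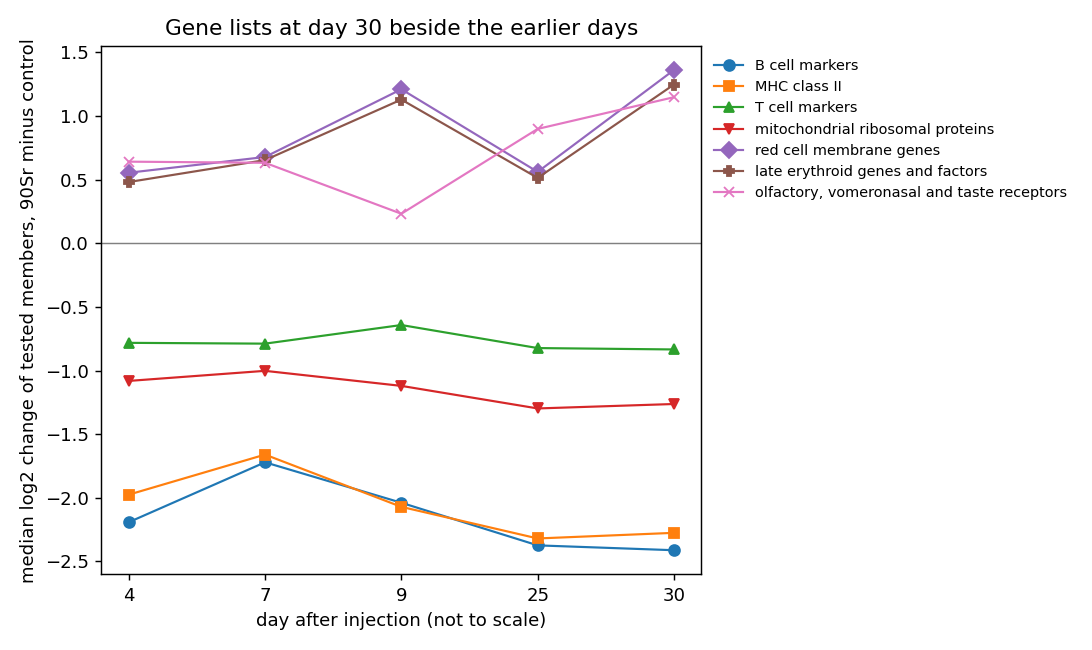
Median log2 change of the tested members of 7 gene lists, 90Sr-injected minus control mice of the same day, with the sampling days in order along the horizontal axis, not to scale. The B cell list stood at -2.19 at day 4 and -2.41 at day 30, and the red cell membrane list at 0.55, 0.68, 1.21, 0.56 and 1.36.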

How the data were processed

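Whole-blood RNA of 1 mouse per array was measured on one-color Agilent 4x44K v2 mouse arrays, 12 of day 30 among 56. Intensities were deposited as scanner output, and per the file headers they were made by Feature Extraction 11.5.1.1 (the submitters' processing notes name 10.7), with background subtracted and no scaling between arrays. The authors' log2 table held filtered probes, each array scaled to the median difference from 90Sr replicate 6 of day 30. That scaling was found here by setting the table against the scanner values (14162 of 14208 rows matched), and column medians ran from 4.32 to 5.09. It was used as an alternative only. Signal over background and the number of arrays limit the precision.

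The log2 processed signal was centred on each array's median. A probe entered if its spot was uniform and above background on more than 75% of the 56 arrays and if it strayed 1.5-fold from its own median on at least 20% of them, and a gene was represented by its brightest probe. Groups followed the sample titles. The groups of 6 were compared with limma 3.58.1 (R 4.3.3), with a call at p under 0.001 and 2-fold and Benjamini-Hochberg adjusted p beside it. The study's methods used a random-variance test at those thresholds. Where a whole group lacked signal well above background, the fold is a lower limit, with each dim array set to its lowest clearly detected signal or to the probe's value, whichever was higher. On simulated data for the day 30 comparison (14581 genes), 80 of 100 changes of 1.5 and 98 of 100 of 2.5 on the log2 scale were called. Of the 14381 genes simulated without a change, 12 were called. The simulated noise was independent between genes and arrays, with no slide or scan day effect. These shares therefore do not describe the calls on the real arrays, where slide and scan day were partly shared with the treatment. Named genes were the 15 largest rises and falls without overlap, from each list the 2 called members of largest change in each direction and the 2 brightest, the 8 largest differences from the earlier days in each direction, and genes the study discusses. Members and lists were chosen with earlier results of these data known. Of 18797 detected symbols, 13580 were current RefSeq symbols and 1059 older ones. Normexp correction used an offset of 50, with the lowest net signals raised before the fit. Alternatives covered scaling, background, filters, probe choice, blocks and left-out arrays. A few genes of these lists are counted but are not reported here by name.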

Additional observations from a re-analysis of the deposited data

Results flagged for a closer look

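Within groups of 6 mice, the highest or lowest array stood apart from the rest by its gap to the nearest array for 10 of 196 groups examined, and chance alone gives about 1 in 20. In the 90Sr group, replicate 2 was high for the mast cell, basophil and eosinophil list (mean level 2.39), replicate 1 for MHC class II presentation (4.56) and replicate 4 stood apart for glycolysis (5.08). Control replicate 4 stood apart for fatty acid and lipid metabolism (2.73), glycolysis (5.11), blood transcription factors (3.09), mitochondrial ribosomal proteins (3.15), solute carriers (2.28) and tRNA synthetases (2.25). Myo1e stood at 7.15 in control replicate 5.

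The 90Sr effect at day 30 differed from the mean effect of the earlier days for 3497 genes by the interaction term of the limma fit, and for 7 genes without the 90Sr arrays of the other scan day.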

How the results depend on the processing

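Without any 1 array, the number of genes called at day 30 ranged from 4878 to 6772, of genes called higher from 2300 to 3432, of genes called lower from 2578 to 3801, and of genes whose effect differed from the earlier days from 2734 to 4405. Slide and scan day had the largest effect. With slide as a fixed block 243 genes were called (31 higher, 212 lower), with scan day as a block 1061 (243 and 818), on the arrays of the shared scan day alone 638 (88 and 550) and on the shared slide alone 486 (66 and 420). The last 2, scaling to the reference array and the fit without the other scan day were chosen after seeing the data. Normexp correction gave 2429 calls, 333 of them higher, the log2 values of the authors 1231 higher, scaling to the reference array 1407 higher, and no detection filter 10051 calls, 6860 of them higher. Genes whose effect differed from the earlier days numbered 1167 with normexp correction, 1408 with slide as a random block and 7 without the 90Sr arrays of the other scan day. The remaining alternatives kept these counts within 1.5 times. The cause was not tested, beyond the smaller number of arrays or genes in some of these fits.

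Replicate numbers did not pair the mice: deviations of same-numbered arrays correlated between -0.01 and 0.34, and 2 of 6 controls correlated best with their own number. With a replicate block 6034 genes were called, and the call of 11 of the 269 named genes changed.

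Of 9766 alternative values of named genes, 23 reversed, in 10 genes. In the authors' table these were Ms4a4c (-2.85), Atr (-1.86), Runx3 (-1.55), Eif2d (-0.94) and Polr2i (-0.69). The mean of a gene's probes turned Ms4a4c (-0.69) and Polr2i (-0.35), the reference array Akt2 (-0.90), and normexp correction Plcg1 (-0.28), Atr (-0.85) and Rb1cc1 (0.14). Cblb was 1.13 with quantile normalization and 1.06 with detection on 75% of arrays. Rb1cc1 was 0.98 with the 75th percentile, 0.91 with quantile normalization, and 0.79 with each stricter detection filter and without the variation filter. Nwd1 was 0.36 with the 75th percentile, 0.18 with the median of bright probes, 0.27 with quantile normalization, and 0.17 with detection on 75% of arrays and without the variation filter. Of 202 called named genes, 25 lost the call without some 1 array.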
